A study of Oryza sativa with 7 samples.

Results

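Gibberellins (GAs) are the diterpenoid hormones that drive stem elongation and seed germination in rice, and 8 genes for the enzymes that make them were followed here through every transcriptome comparison of the mir156 mutants. The genes were CPS1, KS1, KO2, KAO, GNP1, SD1, GA20ox4 and GA3ox2, taken by name and locus as the named genes of the pathway. They were chosen with earlier results of these data known, and they are 8 of the 26168 genes listed in at least 1 table. Transcripts were sequenced in unelongated culms, the stem bases of seedlings aged 20 days, of the wild type, mir156abckl and mir156defghi, in embryos of freshly harvested seeds of the wild type and mir156abcdfghikl, and in shoots of 2-week-old seedlings of the same pair, 7 groups in 4 comparisons. All lines were in the japonica cultivar Nipponbare, which was also the wild type, and the mutants were made with CRISPR/Cas9. In mir156abckl 5 MIR156 genes carry mutations, in mir156defghi 6, and in mir156abcdfghikl 10. Each mutant group stood for 1 line, and the mir156abcdfghikl line sampled for embryos had another code than the one sampled for shoots. The wild-type culms serve as control for both culm mutants.

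The first steps of the pathway run in the plastid, where ent-copalyl diphosphate synthase (CPS1) and ent-kaurene synthase (KS1) turn geranylgeranyl diphosphate into ent-kaurene. The cytochrome P450 enzymes ent-kaurene oxidase (KO2) and ent-kaurenoic acid oxidase (KAO) carry this to the first gibberellin. Soluble dioxygenases then finish the route: GA 20-oxidases, encoded by GNP1 (also GA20ox1), SD1 (also GA20ox2) and GA20ox4, make the direct precursors, and GA 3-oxidase, encoded by GA3ox2 (also D18), makes the bioactive forms. Loss of SD1 gives the semidwarf stature of modern rice varieties, and loss of an early enzyme or of GA3ox2 gives a severe dwarf. miR156 represses SPL transcription factors, among them IPA1, and the question put to these tables was which steps of GA synthesis had other transcript levels once MIR156 genes were mutated.

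On TIGR release 7, CPS1 (LOC_Os02g17780) lies on chromosome 2 from 10273717 to 10283727, KS1 (LOC_Os04g52230) on chromosome 4 from 31026616 to 31031248, and KO2 (LOC_Os06g37364) on chromosome 6 from 22073882 to 22082490. KAO (LOC_Os06g02019) also lies on chromosome 6, from 580664 to 586450. Among the 20-oxidase genes, GNP1 (LOC_Os03g63970) lies on chromosome 3 from 36150663 to 36152517, SD1 (LOC_Os01g66100) on chromosome 1 from 38382381 to 38385504, and GA20ox4 (LOC_Os05g34854) on chromosome 5 from 20685345 to 20692274. GA3ox2 (LOC_Os01g08220) lies on chromosome 1 from 4003658 to 4004946. None of the 8 loci overlaps another listed gene (0 overlaps each).

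The tables give levels as FPKM, fragments per kilobase of transcript scaled to the number of mapped fragments, with 1 value for each group over its 3 repeats. No value per repeat and no read depth were used, so the values below carry no error, and no test between groups was made. A gene was counted as down-regulated or up-regulated past the limit when its ratio of mutant to wild type was at most 0.5 or at least 2. Such counts are set beside the share of all genes that did the same, over the genes that reached 1 FPKM in either group. The tissue labels were checked against marker transcripts. Oleosin transcripts summed to 34635 FPKM in wild-type embryos and to 1.58 in wild-type shoots, and chlorophyll A-B binding protein transcripts to 50102 FPKM in wild-type shoots and 634 in wild-type culms. The meristem gene OSH1 was at 29.9 FPKM in wild-type culms. In bulk tissue, fewer cells of a type and less RNA per cell cannot be told apart.

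Of the 8 genes, 5 (KS1, KO2, KAO, GNP1 and SD1) were listed in all 4 tables. GA20ox4 was not listed in the mir156abckl culm table, and CPS1 and GA3ox2 were not listed in the embryo table. This left 29 pairs of values, of which 19 were lower and 10 higher in the mutant. Among all genes that reached 1 FPKM in either group, 52.3% were lower in mir156abckl culms and 52.8% in mir156defghi culms. The share was 46.1% in embryos and 45.6% in shoots. The pairs include values next to the wild type, and those of the culm mutants share their wild type, so they are not independent. Every listed gene reached 1 FPKM in at least 1 group of its comparison, so none was left out of the counts for low values.

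**Figure D1:**
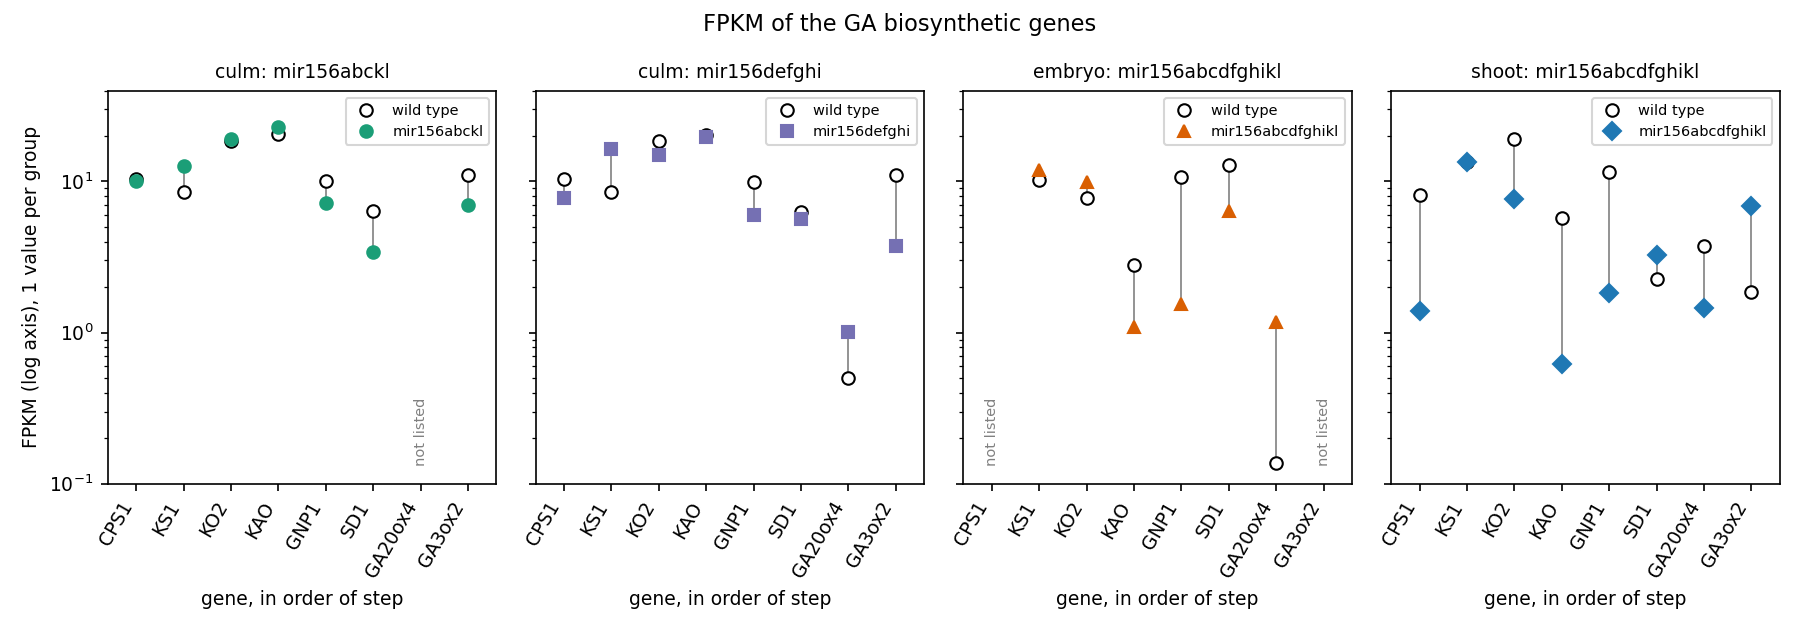
FPKM on a log axis of the 8 GA biosynthetic genes, in order of step, in the wild type (open circles) and the mutant (filled symbols) of each comparison, 1 value per group, with a line joining the pair. GNP1 has the lower value in the mutant in all 4 panels, while KS1 reaches 16.3 FPKM in mir156defghi culms against 8.50 in the wild type.

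In wild-type culms, the KAO transcript was the most abundant of the 8 at 20.5 FPKM, followed by KO2 at 18.5, GA3ox2 at 11.0, CPS1 at 10.4, GNP1 at 10.0, KS1 at 8.55 and SD1 at 6.35. GA20ox4 was at 0.504 FPKM in the wild type of the mir156defghi table. The levels of the 7 genes other than GA20ox4 spanned 3.22-fold from KAO to SD1, and several neighbours in this order lay close together. KAO was 1.10 times KO2, GA3ox2 was 1.06 times CPS1, and CPS1 was 1.04 times GNP1, and without values per repeat these neighbours could not be ranked. In the wild-type shoot the order was another one, with KO2 (19.0 FPKM) and KS1 (13.5) highest and SD1 (2.27) and GA3ox2 (1.87) lowest. In wild-type embryos, where CPS1 and GA3ox2 were not listed, SD1 (12.8), GNP1 (10.8) and KS1 (10.2) were the highest, GNP1 being 1.05 times KS1, and the lowest was GA20ox4 (0.136).

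FPKM values were scaled within each comparison, so wild-type levels of different tissues are only set side by side. Among genes with a wild-type value in every tissue, GNP1 had the smallest ratio between the highest and the lowest tissue (1.15), followed by KS1 (1.58). The ratio was 2.45 for KO2, 5.64 for SD1, 7.31 for KAO and 27.3 for GA20ox4. For CPS1 and GA3ox2, which have no embryo value, the ratio between culm and shoot was 1.28 and 5.90. The same wild-type culms in the 2 culm tables differed by nearly the same factor at each member. The ratios were 0.994 to 0.995 over the 7 genes listed in both, with a median of 0.994 over 23211 genes.

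In mir156abckl culms, the genes of the last steps had ratios under 0.75 and those of the first steps did not. SD1 had 6.35 FPKM in the wild type against 3.41 in the mutant (ratio 0.538), GA3ox2 had 11.0 and 6.98 (0.633), and GNP1 had 10.0 and 7.16 (0.715). None of these 3 ratios passed 0.5, and at limits of 0.75 and 1.5 these were the 3 genes counted as lower, with 0 as higher. The log2 ratios of the 3 were -0.89, -0.66 and -0.48, and 8.23%, 11.6% and 15.7% of all genes had a ratio as low or lower. KS1 stood on the other side, with 8.55 FPKM in the wild type against 12.6 in the mutant, a ratio of 1.47 that 87.6% of genes did not exceed. CPS1 (10.4 and 10.1 FPKM), KO2 (18.5 and 19.0) and KAO (20.5 and 22.9) had log2 ratios of -0.04, 0.04 and 0.16.

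Counted at the 2-fold limit, 0 of the 7 listed genes were down-regulated and 0 up-regulated in mir156abckl culms, beside 7.19% and 6.17% of 22295 genes. At a ratio of 0.75 or below, 3 of 7 were lower beside 18.0% of all genes, and at 1.5 or above 0 of 7 were higher beside 11.7%. The median log2 ratio of the 7 was -0.04 and that of all genes was -0.02. The median size of the log2 ratio, whatever its sign, was 0.48 for the 7 genes and 0.26 for all genes.

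In mir156defghi culms, GA3ox2, which encodes the enzyme of the last step, had the lowest ratio of the 8 genes. It had 11.0 FPKM in the wild type against 3.75 in the mutant, a ratio of 0.342 or 2.92-fold lower (log2 ratio -1.55), and 2.52% of genes were as low or lower. GNP1 had 9.95 FPKM in the wild type against 5.98 in the mutant (ratio 0.601, log2 ratio -0.73), and SD1 had 6.32 and 5.62 (-0.17). CPS1 lay just outside the looser limit, with 10.4 and 7.77 FPKM (ratio 0.7503, log2 ratio -0.41), and the pair of cytochrome P450 genes had 18.4 and 14.9 FPKM (KO2, -0.31) and 20.3 and 19.8 FPKM (KAO, -0.04). KS1, the second enzyme of the route, again went the other way. Its level was 8.50 FPKM in the wild type against 16.3 in the mutant, a ratio of 1.92 that stayed short of 2, and 5.84% of genes were as high or higher.

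GA20ox4 crossed the upper limit in mir156defghi culms at a low level, with 0.504 FPKM in the wild type against 1.01 in the mutant (ratio 2.01). It reached 1 FPKM in the mutant only, so at this wild-type level it could enter the counts only with a high ratio. Adding 1 FPKM to each group brought its log2 ratio from 1.01 to 0.42, and adding 0.1 FPKM brought it to 0.88, so that the gene was no longer past the limit. At the 2-fold limit, 1 of the 8 genes was down-regulated (GA3ox2) and 1 up-regulated (GA20ox4), beside 6.15% and 5.30% of 22237 genes. At the looser limits 2 of 8 were lower (GA3ox2 and GNP1) beside 18.7% of genes, and 2 of 8 were higher (KS1 and GA20ox4) beside 10.9%. The median log2 ratio was -0.24 for the 8 genes and -0.02 for all genes.

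**Figure D2:**
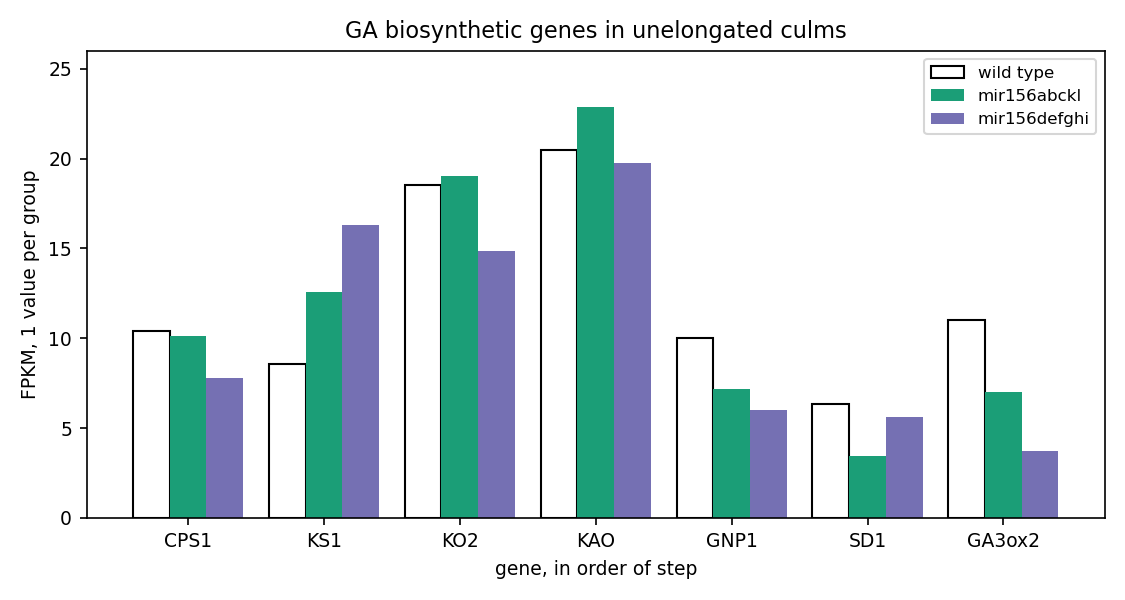
FPKM of the 7 GA biosynthetic genes listed in both culm tables, in order of step, with 1 bar per group for the wild type, mir156abckl and mir156defghi. KS1 stands higher in both mutants (8.55, 12.6 and 16.3 FPKM), GA3ox2 lower in both (11.0, 6.98 and 3.75), and SD1 is lowest in mir156abckl (3.41).

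Set side by side over the shared wild type, both culm mutants had lower values at GNP1, SD1 and GA3ox2 and a higher value at KS1, in different proportions. The difference of the log2 ratios, mir156defghi minus mir156abckl, was -0.89 for GA3ox2, with 1.86 times as much transcript in mir156abckl, and 4.35% of 21841 genes had a difference as low or lower. It was 0.73 for SD1, which was 1.65 times as high in mir156defghi, and 6.53% of genes had a difference as high or higher. The 20-oxidase gene with the lowest ratio was thus SD1 in mir156abckl and GNP1 in mir156defghi (difference -0.25). For CPS1 the difference was -0.37, for KS1 0.38, for KO2 -0.35 and for KAO -0.20. Over all genes the median difference was -0.00 and its median size 0.19, and 20.6% of genes differed by at least 0.5 in either direction, so the differences of CPS1, KS1, KO2, KAO and GNP1 lay within a range common among genes. None of these differences was tested.

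Summed by stage, the 4 genes from CPS1 to KAO gave 58.0 FPKM in wild-type culms and 64.6 in mir156abckl (log2 ratio 0.16). In the mir156defghi table the same sums were 57.6 and 58.7 FPKM (0.03). The sum of the dioxygenase genes was 27.4 FPKM in the wild type and 17.6 in mir156abckl (-0.64, without GA20ox4), and 27.7 and 16.4 FPKM for mir156defghi (-0.76). The early sum was therefore at or slightly above the wild type and the late sum below it in both. In mir156defghi the early sum rested on KS1 (log2 ratio 0.94). The other early genes were lower there (CPS1 -0.41, KO2 -0.31 and KAO -0.04), so the sum does not stand for each early gene. Inside the early stage the plastid enzyme genes also stood in other proportions. KS1 was 0.821 times CPS1 in the wild type, 1.24 times in mir156abckl and 2.09 times in mir156defghi. The ratio of KAO to KO2 was 1.10 in the wild type, 1.20 in mir156abckl and 1.33 in mir156defghi. Chlorophyll A-B binding protein transcripts summed to 634 FPKM in wild-type culms, 939 in mir156abckl and 1153 in mir156defghi, and OSH1 had 29.9, 44.6 and 43.2 FPKM. The part of these tissue markers in the values of the GA genes was not tested.

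**Figure D3:**
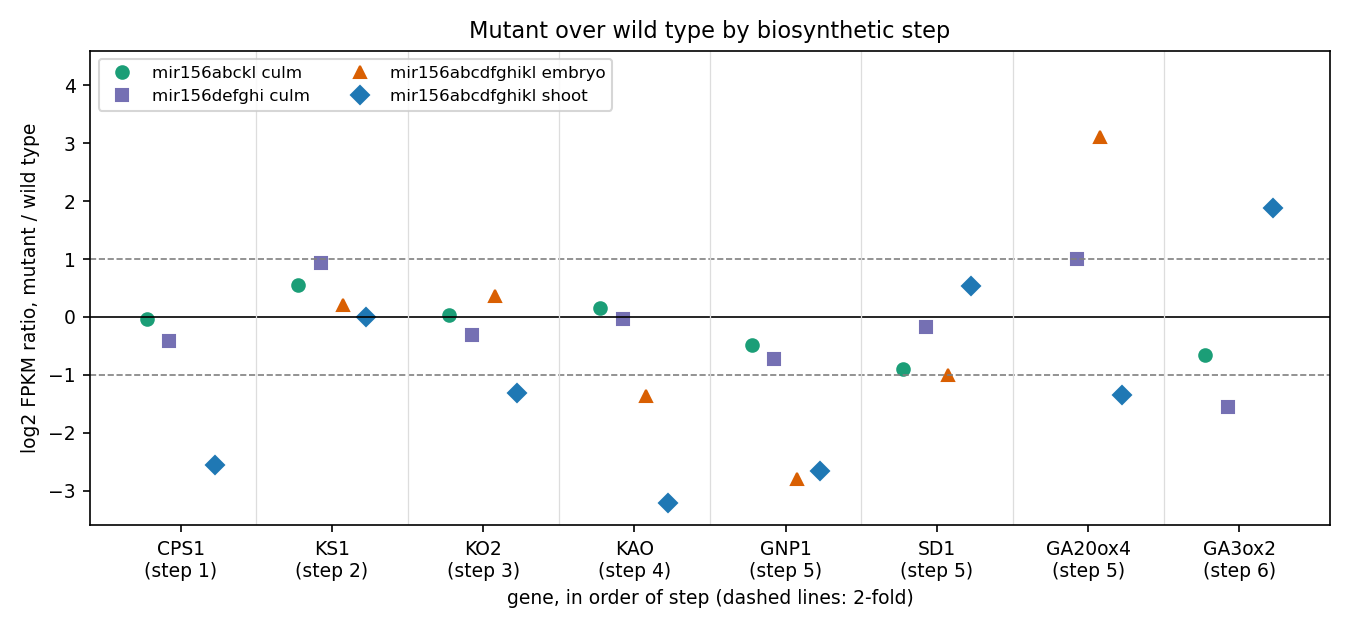
log2 ratio of FPKM, mutant over wild type, for the 8 genes in order of step, with 1 symbol per comparison, 1 value each and dashed lines at 2-fold. The culm symbols stay near 0 for KAO, and for CPS1 and KO2 in mir156abckl, while in mir156defghi CPS1 is at -0.41 and KO2 at -0.31. GA20ox4 spans the widest range, from -1.35 in shoots to 3.11 in embryos.

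In mir156abcdfghikl embryos, 3 genes were down-regulated past the limit, all of them at steps from KAO onward. The early genes KS1 and KO2 had slightly higher values, and CPS1 was not listed. GNP1 had 10.8 FPKM in the wild type against 1.54 in the mutant, 6.99-fold lower (log2 ratio -2.80), and 0.339% of all genes had a ratio as low or lower. KAO had 2.80 and 1.09 FPKM (2.57-fold lower, 1.62% of genes), and SD1 had 12.8 and 6.36 FPKM (2.01-fold lower, 2.94% of genes). After adding 1 FPKM to each group, the log2 ratio of GNP1 was -2.21, that of KAO -0.86 and that of SD1 -0.91, which left GNP1 as the only one of the 3 past the limit. KS1 had 10.2 FPKM in the wild type against 11.9 in the mutant (log2 ratio 0.21), and KO2 had 7.77 and 9.97 (0.36).

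GA20ox4 was the single gene up-regulated past the limit in embryos, at 0.136 FPKM in the wild type against 1.18 in the mutant. This ratio of 8.63 was equalled or exceeded by 0.253% of genes, and the log2 ratio of 3.11 became 0.94 once 1 FPKM was added. With its low wild-type level, GA20ox4 could reach the minimum of 1 FPKM only with a high ratio. Its rank and its count as up-regulated were thus partly set by that minimum. In mutant embryos KAO, GNP1 and GA20ox4 lay close together, at 1.09, 1.54 and 1.18 FPKM. Of the 6 listed genes, 3 were down-regulated beside 3.01% of 19741 genes and 1 was up-regulated beside 4.84%. The looser limits gave the same counts, 3 beside 10.8% and 1 beside 10.4%. The median log2 ratio of the 6 genes was -0.40 and that of all genes 0.03, and the median size was 1.18 against 0.20. Oleosin transcripts, the markers of seed oil bodies, summed to 34635 FPKM in wild-type embryos and 28563 in the mutant (6 genes), and late embryogenesis abundant transcripts to 20425 and 16364 (21 genes). Chlorophyll A-B binding protein transcripts stood the other way, at 96.7 FPKM in the wild type and 259 in mir156abcdfghikl (16 genes), and so did OSH1, at 7.18 and 10.8. Their part in these values was not tested.

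In mir156abcdfghikl shoots the genes CPS1, KO2, KAO, GNP1 and GA20ox4 were down-regulated past the limit, while KS1 was level and SD1 and GA3ox2 were higher. CPS1, the entry enzyme of the pathway, had 8.11 FPKM in the wild type against 1.39 in the mutant, 5.86-fold lower (log2 ratio -2.55). KO2 had 19.0 and 7.69 FPKM (2.47-fold lower, -1.31), and KAO had 5.71 and 0.618 (9.23-fold lower, -3.21), the lowest ratio among the 8 genes in any comparison. KS1, which lies between CPS1 and KO2 in the route, was at 13.5 FPKM in both groups, and 45.5% of genes had a ratio as low or lower. Among the 20-oxidase genes, GNP1 had 11.5 and 1.81 FPKM (6.35-fold lower, -2.67) and GA20ox4 had 3.72 and 1.46 (2.55-fold lower, -1.35), while SD1 had 2.27 in the wild type against 3.27 in the mutant (ratio 1.44). GA3ox2 had the higher value in the mutant, with 1.87 FPKM in the wild type against 6.89 in the mutant (3.69-fold, log2 ratio 1.88). With 1 FPKM added, the log2 ratios of CPS1, KAO and GNP1 were -1.93, -2.05 and -2.15, and that of GA20ox4 was -0.94.

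The shoot comparison held large differences across the transcriptome, and the counts have to be read against them. Of the 8 genes, 5 were down-regulated and 1 up-regulated past the limit, beside 23.2% and 26.8% of 22057 genes. At the looser limits the counts were again 5 and 1, beside 34.6% and 36.7%. KAO lay where 4.30% of genes were as low or lower, GNP1 where 6.70% were, CPS1 at 7.30%, GA20ox4 at 17.9% and KO2 at 18.6%. GA3ox2 was equalled or exceeded by 14.6% of genes and SD1 by 38.2%. The median log2 ratio was -1.33 for the 8 genes and 0.15 for all genes, and its median size was 1.62 and 0.998. Chlorophyll A-B binding protein transcripts summed to 50102 FPKM in wild-type shoots and 8390 in mutant shoots (17 genes), and late embryogenesis abundant transcripts to 1075 and 113 (12 genes). The part of these differences in the GA gene values was not tested.

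**Figure D4:**
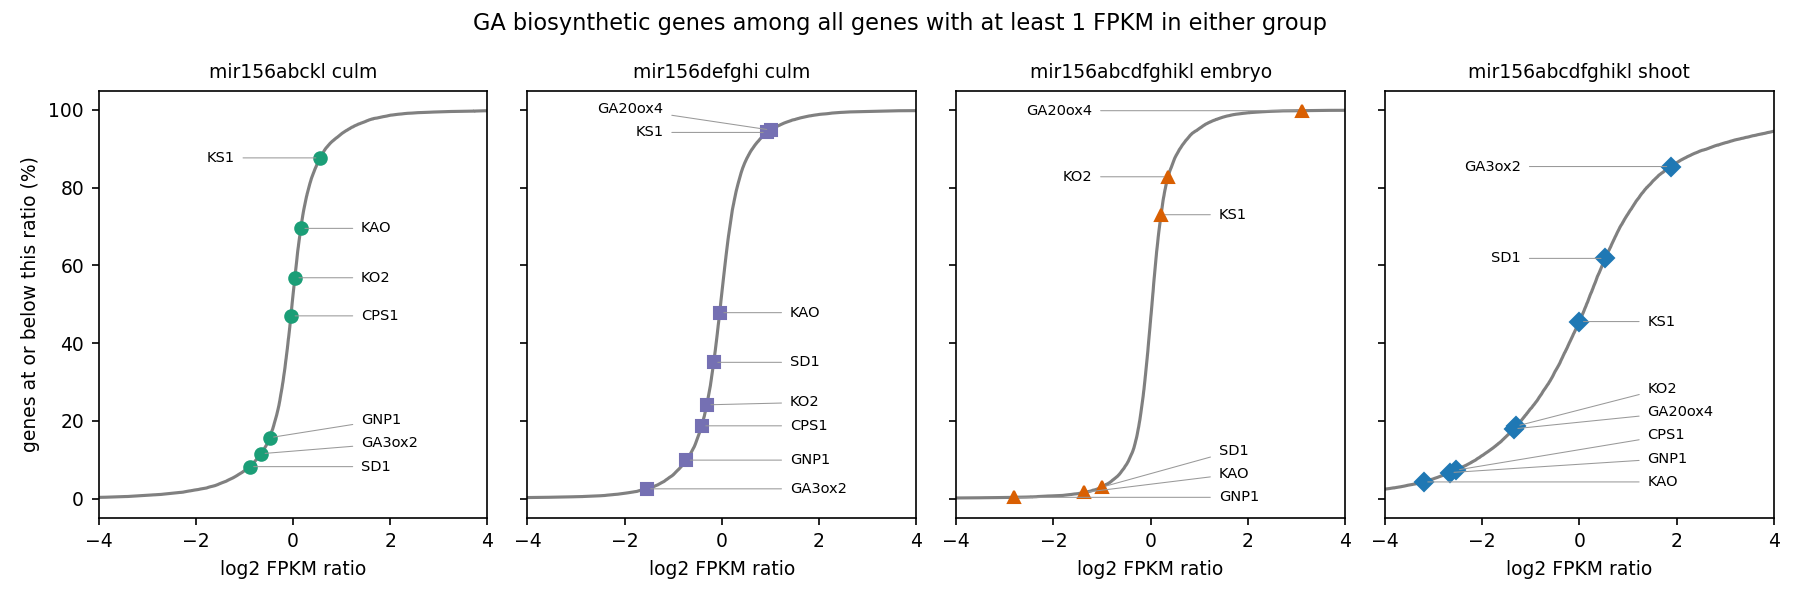
Share of all genes (percent, vertical axis) at or below each log2 ratio of FPKM (horizontal axis), over genes that reached 1 FPKM in either group (grey line), with the listed GA biosynthetic genes marked in each of the 4 comparisons. The line is steep in culms and embryos and flatter in shoots, so KAO at a log2 ratio of -1.36 in embryos lies at 1.62% of genes while KO2 at -1.31 in shoots lies at 18.6%.

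By stage, the shoot also differed from the other comparisons. The early sum from CPS1 to KAO was 46.4 FPKM in wild-type shoots and 23.2 in mutant shoots (log2 ratio -0.999), and the sum of the dioxygenase genes was 19.4 and 13.4 (-0.53). In embryos the 3 early genes listed summed to 20.8 and 22.9 FPKM (0.14), and the 3 20-oxidase genes to 23.7 and 9.07 (-1.38). KS1 was 1.67 times CPS1 in wild-type shoots and 9.75 times in the mutant. KAO, the second of the cytochrome P450 steps, was 0.300 times KO2 in wild-type shoots and 0.0804 times in the mutant, and in embryos 0.360 and 0.109 times. At the end of the route, GA3ox2 was 0.162 times GNP1 in wild-type shoots and 3.80 times in the mutant, whereas in culms it was 1.10 times GNP1 in the wild type and 0.626 times in mir156defghi.

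The order of the levels was another one in the mutants. In mutant shoots the highest were KS1 (13.5 FPKM), KO2 (7.69) and GA3ox2 (6.89) and the lowest KAO (0.618), and the levels spanned 21.8-fold against 10.2-fold in the wild type. In mutant embryos KS1 (11.9) and KO2 (9.97) came first, ahead of SD1, and the span was 10.9-fold against 93.8-fold in the wild type, in which GA20ox4 set the lower end. In mir156defghi culms KAO stayed first, KS1 came second at 16.3 FPKM and GA3ox2, at 3.75 FPKM, was above GA20ox4 only. Over all listed members the sum was 85.3 FPKM in wild-type culms and 82.1 in mir156abckl, 85.4 and 75.0 for mir156defghi, 44.5 and 32.0 in embryos, and 65.8 and 36.6 in shoots.

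The 3 GA 20-oxidase genes catalyse the same step, and their sum was lower in the mutant in all 4 comparisons. In culms the sum was 16.4 FPKM in the wild type and 10.6 in mir156abckl (log2 ratio -0.63, 2 genes listed), and 16.8 and 12.6 for mir156defghi (-0.41). In shoots it was 17.5 and 6.55 FPKM (-1.42). The share of GNP1 in the sum was smaller in the mutant in 3 of the 4 comparisons. It was 45.5% in wild-type embryos and 17.0% in mutant embryos, 65.8% and 27.7% in shoots, and 59.3% and 47.4% in the mir156defghi culm comparison, but 61.2% and 67.7% for mir156abckl. Of the sum in mutant embryos, SD1 held 70.1% and GA20ox4 13.0%, against 54.0% and 0.575% in the wild type. GNP1 was 5.08 times SD1 in wild-type shoots and 0.555 times in mutant shoots, and in culms 1.58 times in the wild type, 2.10 times in mir156abckl and 1.06 times in mir156defghi.

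**Figure D5:**
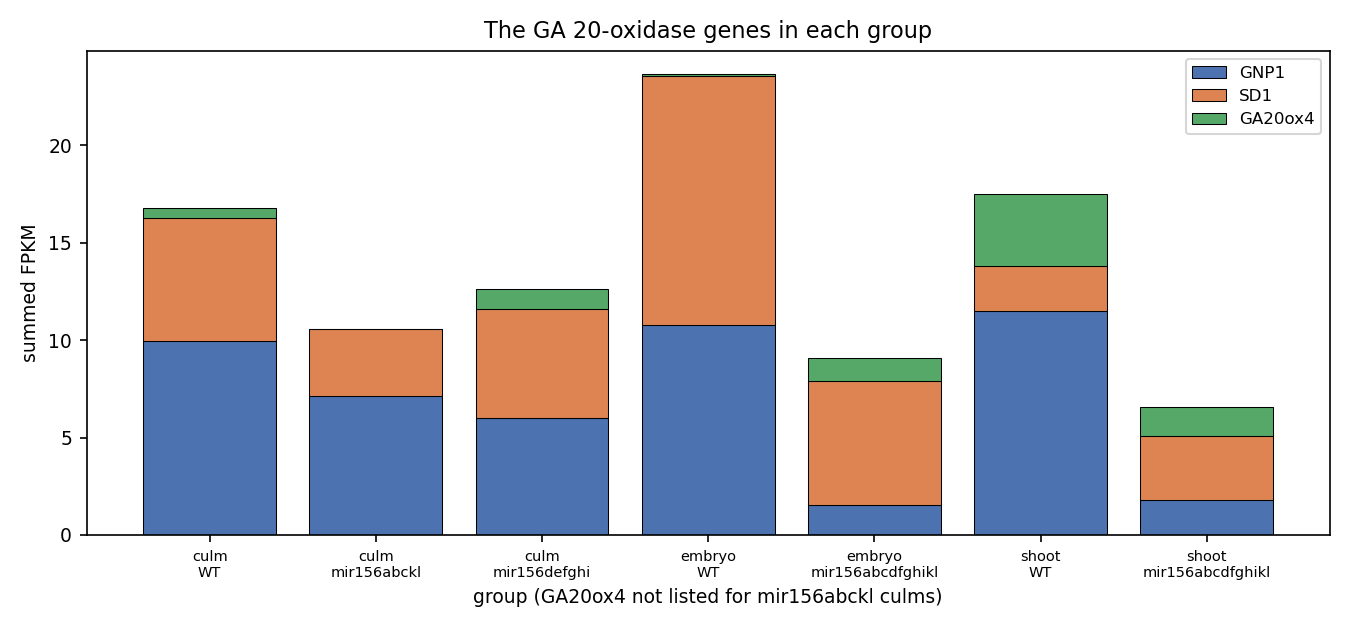
Summed FPKM of the GA 20-oxidase genes in each of the 7 groups, with the parts of GNP1, SD1 and GA20ox4 stacked. The sum is lower in each mutant than in its wild type (23.7 and 9.07 FPKM in embryos), and the GNP1 part is the smaller of GNP1 and SD1 in embryos of both genotypes and in mutant shoots.

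Gene by gene, GNP1 was the one member listed in all 4 tables whose mutant value was lower in each, with log2 ratios of -0.48, -0.73, -2.80 and -2.67 in the order mir156abckl culms, mir156defghi culms, embryos and shoots. CPS1 was next to the wild type in mir156abckl culms (-0.04, with 47.0% of genes as low or lower). It was lower in mir156defghi culms (-0.41) and shoots (-2.55) and not listed in embryos. KS1 was higher in 3 tables and level in shoots (log2 ratio -0.00). SD1 was lower in both culm tables and in embryos and higher in shoots. In mir156defghi culms the log2 ratio of SD1 was -0.17, and 35.0% of genes were as low or lower. KAO had 0.16 in mir156abckl culms, -0.04 in mir156defghi culms, -1.36 in embryos and -3.21 in shoots. KO2 and GA20ox4 had values on both sides, and GA3ox2 was lower in both culm mutants and higher in shoots. The 2 culm comparisons share their wild type and so count as 1 control.

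Genes that act on the same hormone were read beside the 8. GA deactivating genes encode the GA 2-oxidases and the P450 enzyme EUI1, and the list used here, which the study assembled with these samples in view, also holds the homeobox gene HOX12, not an enzyme gene. In mir156abckl culms 3 of its 9 genes were down-regulated past the limit and 2 up-regulated, beside 7.19% and 6.17% of all genes (median log2 ratio -0.06). In mir156defghi culms 0 and 3 of the 9 that reached 1 FPKM did so, beside 6.15% and 5.30% (0.05). The counts were 1 and 1 of 7 in embryos beside 3.01% and 4.84% (-0.03), and 2 and 2 of 7 in shoots, near the shares of 23.2% and 26.8% over all genes (-0.45). GA2ox3 had 15.2 FPKM in wild-type culms and 5.99 in mir156abckl (log2 ratio -1.35). GA2ox1 had 2.89 FPKM in wild-type culms and 10.0 in mir156defghi (1.79), and it was also higher in mir156abckl culms (2.90 and 6.71, 1.21). GA2ox10 had 8.76 FPKM in wild-type shoots and 58.3 in mutant shoots (2.73). Of the 4 signaling genes, the receptor gene GID1, GID2, the DELLA gene SLR1 and SPY, 0 passed the limit in any comparison, beside the same all-gene shares, with medians of 0.04, -0.06, -0.21 and 0.53. GID2 is known as an F-box gene, but the deposited tables describe the locus used for it (LOC_Os02g36974) as a 14-3-3 protein, so its identity is uncertain.

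Other genes whose descriptions name the same enzyme families were mostly lower in the culm mutants and in shoots. Down-regulated past the limit were 3 of 6 in mir156abckl culms beside 7.19% of all genes (median log2 ratio -1.90), 1 of 6 in mir156defghi culms beside 6.15% (-0.53), 1 of 2 in embryos beside 3.01% (-0.58), and in shoots 5 of 5 that reached 1 FPKM beside 23.2% (-2.89). None was up-regulated past the limit in any of the 4 comparisons. Genes described as ent-kaurene synthase had the lowest ratios of this list in mir156abckl culms and in shoots. LOC_Os02g36210 had 64.3 FPKM in wild-type culms and 3.27 in mir156abckl (-4.30), LOC_Os04g10060 had 12.8 and 1.28 (-3.33), and LOC_Os04g09900 had 78.4 and 8.11 (-3.27). LOC_Os04g09900 had 77.9 and 25.9 FPKM in the mir156defghi table (-1.59) and 10.3 and 0.0883 in shoots (-6.86), where LOC_Os02g36210 had 16.2 and 0.368 (-5.46). In rice, relatives of CPS1 and KS1 serve the synthesis of defence diterpenes, and KS1 itself, with log2 ratios between -0.00 and 0.94, did not share these low values. Of the genes described as gibberellin 20 oxidase 2, LOC_Os03g42130 had 56.1 FPKM in wild-type embryos and 24.1 in the mutant (-1.22). LOC_Os08g44590 had 19.5 in wild-type shoots and 2.64 in the mutant (-2.89). Slightly higher in the mutant were LOC_Os04g39980 in embryos (127 and 132 FPKM, 0.06) and LOC_Os08g44590 in mir156abckl culms (33.8 and 36.6, 0.11).

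KO2 lies in a cluster of cytochrome P450 genes, and 2 of them within 50 kb were listed. LOC_Os06g37330 (chromosome 6, 22048645 to 22057757) ends 16.1 kb from KO2 and had 3.67 FPKM in wild-type culms and 0.838 in mir156abckl (-2.13), and 3.65 and 2.76 in the mir156defghi table (-0.40). LOC_Os06g37300 (22020839 to 22028146) ends 45.7 kb away and had 17.8 and 1.21 FPKM in mir156abckl culms (-3.89), 17.7 and 11.4 in mir156defghi culms (-0.64) and 16.5 and 0.715 in shoots (-4.53). In embryos it had 0.592 and 0.596 FPKM (0.01). KO2 had a log2 ratio of 0.04 in mir156abckl culms, unlike both neighbours. How reads were shared between these genes was not measured, so the KO2 values are uncertain to that extent. The other members had no neighbour of their enzyme term within this distance.

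The pattern of each gene listed in all 4 tables was compared with that of 17666 genes by the Euclidean distance over the 4 log2 ratios. The nearest gene was LOC_Os08g12780 for KS1 (distance 0.129), LOC_Os02g57670 for KO2 (0.102), LOC_Os07g48490 for KAO (0.532), LOC_Os09g28630 for GNP1 (0.670) and LOC_Os04g42200 for SD1 (0.412). LOC_Os09g28630, which had the largest of these distances, is described as a gibberellin receptor. The other nearest genes are described as a chloroplast envelope membrane protein (for KS1), ribosomal L9 (KO2), a stress responsive protein (KAO) and an expressed protein (SD1). With 1 FPKM added before the ratios, 3 of the 5 nearest genes were the same. Those of KAO and GNP1 were then LOC_Os03g20900, described as a Myb transcription factor, and LOC_Os03g04190, described as a cytochrome P450. The closest pair among these 5 genes was KAO and GNP1 at a distance of 1.81, but with 1 FPKM added it was KO2 and KAO at 1.48, with KAO and GNP1 at 1.59. Without it, 398 genes were nearer to KAO than GNP1 was and 28 nearer to GNP1 than KAO was. The 4 ratios include 2 with a shared wild type, so each pattern rests on 4 values with no error.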

How the data were processed

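Seeds were sown in a paddy field, and RNA of culms, shoots and embryos went into stranded mRNA libraries, with 3 biological repeats per group pooled into 1 value. Reads with adapters or of low quality were discarded by the authors, who aligned the others to TIGR release 7 with HISAT2, whose version is not given in the sources used here. The submitters' processing notes name Cufflinks 2.2.1, with which the authors computed the deposited FPKM values. The deposited tables also hold the authors' own log2 ratios, p-values and q-values, which were not used. Neither counts nor values per repeat were used, so the depth of each library is unknown, no error could be computed, and no test was made.

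Ratios were taken between the FPKM columns in Python 3.11.15 (pandas 2.3.3, numpy 2.4.6), and matplotlib 3.10.9 drew the plots. Log2 ratios had nothing added unless stated. Simulated data served to check the counting. Counts used limits of 2 and 0.5, over genes that reached 1 FPKM in either group. Named were the 8 members, other GA genes past 2-fold that reached 5 FPKM in the higher group (at most 4 per comparison, largest first), neighbours within 50 kb of the same enzyme term, and the nearest gene by pattern. Some other GA genes are named outside this rule where they qualify a count, a sum or a contrast. GA20ox4 and the genes at the edges of a limit are among the members. The members, the lists and the rule were chosen with earlier results of these data known. Gene names come from the study, and positions from the deposited tables. The alternatives were 1 or 0.1 FPKM added, 1 FPKM required in both groups or no minimum, limits of 1.5 and 0.75, ratios centred on the median of all genes, and the wild type of the other culm table. Promoter and protein sequences were not analysed here.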

Additional observations from a re-analysis of the deposited data

Results flagged for a closer look

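For 3 genes the log2 ratio of mir156abcdfghikl to the wild type had opposite signs in embryos and in shoots and differed by more than 1 between them, and the difference between the tissues was not tested, since each group has 1 value. KO2 had a ratio of 0.36 in embryos and -1.31 in shoots, a difference of 1.67 (1.53 with 1 FPKM added to every group). SD1 had -1.01 and 0.53, a difference of -1.54 (-1.29 with 1 FPKM added). GA20ox4 had 3.11 and -1.35, a difference of 4.46, which was 1.88 with 1 FPKM added, and its wild-type embryo level was 0.136 FPKM. KS1 also had opposite signs, at 0.21 and -0.00, with a shoot ratio next to 0. The embryo and shoot samples carry different line codes, so tissue and line cannot be told apart.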

How the results depend on the processing

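No paired analysis was possible because each group has 1 pooled value, and leaving out single repeats could not be run for the same reason. Promoter motifs were not run. With limits of 1.5 and 0.75, the genes counted as lower were 3 in mir156abckl culms (0 at 2-fold) and 2 in mir156defghi culms (1 at 2-fold), and those counted as higher in mir156defghi culms were 2 (1 at 2-fold). That 1 gene, GA20ox4, was lost, leaving 0, with 1 FPKM added, with 0.1 FPKM added, with 1 FPKM required in both groups and with the wild type of the mir156abckl table, which does not list it. In embryos, 1 FPKM added left 1 gene down-regulated (3 without, 2 with 0.1 FPKM added) and 0 up-regulated (1 without), and 1 FPKM required in both groups left 0 up-regulated and moved the median log2 ratio from -0.40 to -1.01, since GA20ox4 was no longer counted. In shoots, 4 genes in place of 5 were down-regulated with 1 FPKM added, which lost GA20ox4, and with 1 FPKM required in both groups, which left out KAO. Centring on the median of all genes and dropping the minimum changed none of the counts at 2-fold, and no setting reversed the direction of a gene past 2-fold. Of 123 recomputed values of single genes, of the 20-oxidase sums and of the differences between the culm mutants, 112 stayed on the same side of 2-fold and within 1.5 times of the reported ratio, and 11 did not. The depth is unknown, so levels under about 1 FPKM (GA20ox4 in culms and embryos, KAO in mutant shoots) carry the least certain ratios.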
